A study of Rattus norvegicus with 15 samples.

Results

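Gene expression in cryopreserved primary rat hepatocytes exposed to naphthalenes that carry a hydroxyl group at position 1 was compared with that in hepatocytes exposed to naphthalenes that do not. The first side holds the 6 arrays of 1-Naphthol and 1,5-Naphthalenediol, and the second holds the 6 arrays of 2,7-Naphthalenediol and Naphthalene. The sides thus take in 12 of the 15 arrays of the series. Of these, array 3 of 1,5-Naphthalenediol has no weight in the tested difference between the sides, as described below. The compounds were assigned to the sides by structure alone, with no measured value: positions 1 and 5 are alpha positions, next to the ring fusion, and 2,7-Naphthalenediol carries its hydroxyls at beta positions. The cells came from male rats given in the labels as Wister, were kept in culture for 24 h, and were then exposed for 24 h to 30 µM of one compound or to the solvent DMSO alone, with 3 arrays in each of the 5 groups. All groups share the strain, the sex, the culture schedule and the dose, and the remaining 3 arrays are the DMSO controls. Thawed hepatocytes in culture are the only cell preparation studied, and a single dose and time were measured. The series text describes the 3 arrays of a group as independent experiments, and how donors or cell lots were divided among them is not given in the sources used here.

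Naphthalene is a 2-ring aromatic hydrocarbon that liver cytochromes P450 oxidise to naphthols, diols and quinones. Ligands of the aryl hydrocarbon receptor (AhR), a transcription factor, raise transcription of Cyp1a1 and of a small battery of aldehyde and quinone enzymes. Electrophiles and quinones release the transcription factor NRF2 from its inhibitor KEAP1, and NRF2 then raises glutathione transferases, quinone reductase and the enzymes that supply NADPH, while unfolded proteins raise the heat shock and proteasome genes through other factors.

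Promoters are shown for 3 of the genes that were higher on the position 1 side in every comparison described below, and for 1 of those that were lower. They are RefSeq sequences of the rat assembly GRCr8, from 250 bases before to 50 bases after the gene start, written 5′ to 3′ along the gene. Capitals mark GCGTG, the core of the AhR response element, and TGACNNNGC, the core of the antioxidant response element that NRF2 binds, each searched on both strands, so a match on the other strand reads CACGC or the reverse complement of the second motif. Gstp1 lies at chr1:210769656-210769955 on the minus strand, Nqo1 at chr19:52220218-52220517 on the minus strand, Gsta2 at chr8:88077043-88077342 on the minus strand, and Wnt11 at chr1:162549110-162549409 on the plus strand.
Gstp1: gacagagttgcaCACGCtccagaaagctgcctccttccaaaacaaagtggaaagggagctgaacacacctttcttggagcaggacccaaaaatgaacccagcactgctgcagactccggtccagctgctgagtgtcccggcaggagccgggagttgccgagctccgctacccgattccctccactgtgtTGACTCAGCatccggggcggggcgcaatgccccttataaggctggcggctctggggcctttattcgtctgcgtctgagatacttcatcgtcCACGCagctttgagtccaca
Nqo1: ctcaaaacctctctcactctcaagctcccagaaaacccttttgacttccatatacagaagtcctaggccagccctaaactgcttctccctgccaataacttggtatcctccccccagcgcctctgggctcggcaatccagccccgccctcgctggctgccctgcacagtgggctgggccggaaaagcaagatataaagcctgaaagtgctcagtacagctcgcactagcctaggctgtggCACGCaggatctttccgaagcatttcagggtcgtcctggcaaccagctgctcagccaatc
Gsta2: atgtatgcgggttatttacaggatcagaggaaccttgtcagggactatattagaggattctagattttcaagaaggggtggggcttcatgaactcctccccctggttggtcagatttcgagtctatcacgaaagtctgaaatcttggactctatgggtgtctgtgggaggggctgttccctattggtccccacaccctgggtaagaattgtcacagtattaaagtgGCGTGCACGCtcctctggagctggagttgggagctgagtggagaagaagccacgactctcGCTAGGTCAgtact
Wnt11: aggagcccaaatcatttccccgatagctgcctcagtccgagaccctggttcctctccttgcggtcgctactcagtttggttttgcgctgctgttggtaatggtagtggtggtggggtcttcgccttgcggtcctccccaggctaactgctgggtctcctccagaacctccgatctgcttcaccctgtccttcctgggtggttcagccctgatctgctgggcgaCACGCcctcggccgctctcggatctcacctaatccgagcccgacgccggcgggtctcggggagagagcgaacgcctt
GCGTG was found in 5 of the 9 promoters of the genes higher in all comparisons that could be matched, and in 3 of the 6 of those lower. It was found in 48.2% of the 8694 promoters of genes tested here, and in 31.1% of all 27457 promoters of the table. TGACNNNGC was found in 3 of the 9 and 0 of the 6, against 14.6% of the promoters of genes tested and 12.2% of all. In the Gsta2 window the 2 GCGTG matches, on opposite strands, lie directly beside each other, and the Wnt11 promoter, of a gene that was lower, also holds a GCGTG match. A match of letters is not a binding site, and binding was not measured. In all, 15 of the 19 genes with a symbol were matched, and Aldh3a1, Cyp1a1, Ptgr1 and Car3 were not in the table.

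Each array is a single-colour Agilent rat array, and a level is the log2 processed intensity of a spot minus the array's 75th percentile, so 0 is the intensity of the 75th-percentile gene spot. That percentile lay between 1718 and 2074 intensity units, each array had 57.4% to 61% of its gene spots well above background, and arrays of a group correlated at 0.9957 or more. The 12 arrays lay on 2 slides: the first held 2,7-Naphthalenediol and arrays 1 and 2 of 1,5-Naphthalenediol together with DMSO, and the second held 1-Naphthol, Naphthalene and array 3 of 1,5-Naphthalenediol. Array 3 of 1,5-Naphthalenediol is thus the only link between the slides: any pair of compounds from different slides is compared through it, and 1,5-Naphthalenediol against 1-Naphthol or Naphthalene is this 1 array against 3, with the lone array assumed to vary like those of the other groups. The slide was therefore a term of every fit, and the difference between the sides is the mean of the 2 pairs compared within a slide, 1,5-Naphthalenediol against 2,7-Naphthalenediol (the diol pair) and 1-Naphthol against Naphthalene (the naphthol pair). Array 3 of 1,5-Naphthalenediol has no weight in the difference between the sides, and without it the same 2796 genes passed the test. For this compound the difference thus rests on arrays 1 and 2. The diol pair changes the position of 2 hydroxyls, and the naphthol pair adds 1 hydroxyl. Markers of hepatocytes were detected in 6 of 6 cases on all arrays, with a summed level relative to the 75th percentile of 384 to 407 on the position 1 side, 387 to 421 on the other and 415 to 425 in DMSO. Of markers of other liver cells, 6 of 11 were kept for stellate cells, with summed levels of 2.11 to 2.93, 2.65 to 3.46 and 3.54 to 3.65 in the same order, and 2 of 11 were kept for macrophages, 2 of 9 for endothelial cells, 3 of 7 for bile duct cells and 2 of 10 for lymphocytes.

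Naphthalenes with a hydroxyl at position 1 gave higher transcripts of the AhR targets Cyp1a1, Aldh3a1 and Nqo1, of glutathione transferases (Gstp1, Gsta2) and of the small heat shock protein Hspb1, and lower transcripts of Wnt11, Slco3a1 and Car3. Most other differences were small. Of 19783 genes tested with limma, 2796 (14.1%) differed between the sides at a Benjamini-Hochberg adjusted p under 0.05, 1271 (6.42%) of them higher and 1525 (7.71%) lower with a hydroxyl at position 1. Such genes are named called below. Only 39 of them differed by 2-fold or more, 31 higher and 8 lower, and 2662 differed by under 1.5-fold. Of the 19783 genes tested, 10489 carry a symbol. The other 9294 are accessions or probes without a symbol, each counted as 1 gene, and they enter the shares over all genes. The median absolute difference over all genes was 0.0737 on the log2 scale, against a median standard error of 0.0502. Without array 2 of 1,5-Naphthalenediol, 701 genes were called higher and 850 lower. With the compound as a random block in a fit of the sides, 457 were called higher and 634 lower, and with the 4 compounds as units the smallest 2-sided exact permutation p is 0.333, so the p-values below concern these 4 compounds and the spread between arrays, not alpha-hydroxyl naphthalenes in general.

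The 2 matched pairs share no array, and each gives its own measure of the difference. The diol pair had 1401 called genes (7.08%) and the naphthol pair 632 (3.19%), with p-values adjusted over all genes and all 6 pairs of compounds together. In 217 genes both pairs were called in the same direction, 93 higher and 124 lower, which is 15.5% of the calls of the diol pair and 34.3% of those of the naphthol pair. In 10 genes the pairs were called in opposite directions. Across the 19783 genes, which are not independent replicates, the differences of the 2 pairs had a Pearson correlation of 0.292 and a Spearman correlation of 0.284, and 61% had the same sign. Single arrays moved the counts: the diol pair had 919 and 859 called genes without arrays 1 and 2 of 2,7-Naphthalenediol, and 753 and 516 without arrays 1 and 2 of 1,5-Naphthalenediol, while the naphthol pair had 314, 331 and 361 without 1-Naphthol 1, 2 and 3 and 419 without Naphthalene 2.

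**Figure D1:**
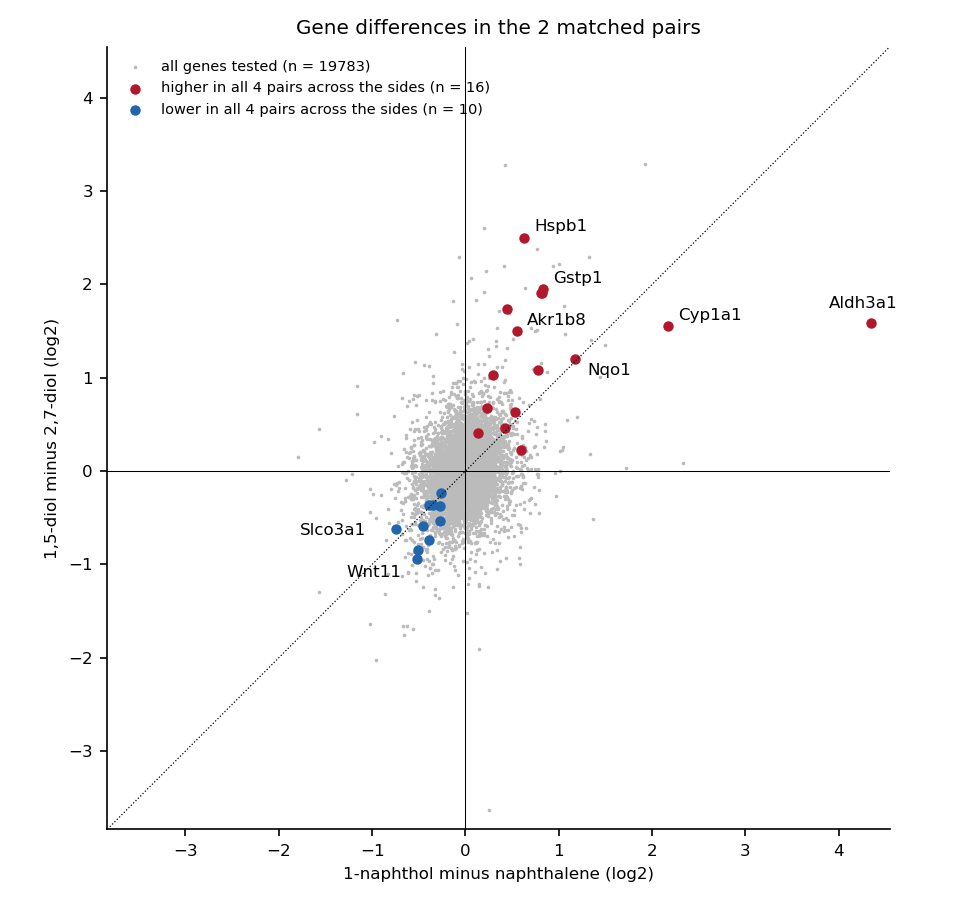
Difference of each of 19783 genes in the diol pair (vertical axis, log2) against that in the naphthol pair (horizontal axis, log2); grey points are genes, coloured points the 26 genes called in every comparison across the sides, and the dotted line marks equal differences. Aldh3a1 lies below the dotted line at 1.59 and 4.34, Nqo1 lies on it at 1.20 and 1.17, and Hspb1 and Gstp1 lie above it.

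Across the sides 4 pairs of compounds can be formed, and 26 genes (0.131%) were called in the same direction in all 4 and between the sides. The diol pair and the naphthol pair are compared within a slide, with 2 arrays of 1,5-Naphthalenediol in the former, and the 2 other pairs rest on array 3 of 1,5-Naphthalenediol alone for their link, so no fit without that array exists for them. Of these, 16 (0.0809%) were higher with a hydroxyl at position 1 and 10 (0.0505%) were lower, and 19 carry a symbol. Values of the 6 arrays of one side lay entirely above or below those of the other in 26 of the 26, against 856 genes (4.33%) over the whole array. The 26 were chosen by these calls, so their differences are given as sizes. Leaving out 1 array in turn gave 8 to 14 genes higher and 3 to 18 lower: 9 higher without 2,7-Naphthalenediol 1, 2 or 1-Naphthol 1, 10 without 1,5-Naphthalenediol 1 or 1-Naphthol 2, and 8 without 1,5-Naphthalenediol 2; 5 lower without 2,7-Naphthalenediol 2 or 1,5-Naphthalenediol 2, 3 and 4 without 1-Naphthol 2 and 3, and 6 and 18 without Naphthalene 2 and 3. Aldh3a1, Cyp1a1, Cyp2b3, Gstp1, Nqo1, Carmil1 and Wnt11 were called throughout in all 11 of these fits, and Gsta2 in 10 of 11. The others were called throughout less often: Ptgr1 and Tsku in 7, Cav1 in 5, Slc39a6 in 4, Hspb1, Slco3a1 and Car3 in 3, Akr1b8 in 2, Tsc22d1 in 1, and Alas1 and Reg4 in 0.

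Aldh3a1 encodes an aldehyde dehydrogenase of the AhR battery. Its levels on the 3 arrays were -3.23, -3.33 and -3.34 in 1-Naphthol and -3.85, -3.89 and -4.16 in 1,5-Naphthalenediol. They were -5.27, -5.67 and -5.43 in 2,7-Naphthalenediol, -7.81, -7.54 and -7.58 in Naphthalene, and -7.58, -7.56 and -7.51 in DMSO. The 5 groups fall into 4 levels, with Naphthalene and DMSO together at the bottom, where no array was well above background. The sides differed by 2.97 (95% confidence interval 2.81 to 3.12, adjusted p = 1.2e-09, limma), and because Naphthalene gives only a bound, the ratio is stated as at least 7.11-fold. 1-Naphthol lay at least 18.0-fold above Naphthalene, 1,5-Naphthalenediol at least 11.3-fold and 2,7-Naphthalenediol at least 4.03-fold. These ratios are of group means without the slide term. Aldh3a1 is the 1 gene of the 26 for which 2,7-Naphthalenediol and Naphthalene also differed (adjusted p = 0.00026, limma), a comparison linked by array 3 of 1,5-Naphthalenediol. On slide 2 that array, at -4.16, lay 0.86 below the mean of the 3 1-Naphthol arrays (adjusted p = 0.0065, limma), and the other diol arrays do not enter this value.

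Cyp1a1 encodes the cytochrome P450 that is the usual readout of AhR activation. Its levels were 2.303, 2.02 and 2.09 in 1-Naphthol and 2.08, 1.75 and 2.09 in 1,5-Naphthalenediol, against 0.26, 0.24 and 0.60 in 2,7-Naphthalenediol, -0.04, -0.13 and 0.06 in Naphthalene and -0.39, -0.16 and -0.20 in DMSO. The sides did not overlap, and differed 3.64-fold, a log2 difference of 1.86 (1.66 to 2.06, adjusted p = 8.7e-07, limma). On slide 2 the lone array of 1,5-Naphthalenediol, array 3, differed from the 1-Naphthol mean by -0.04 with an interval of -0.42 to 0.33. Of 10 genes of the AhR and its targets tested, 5 were higher and 0 lower, against 6.42% and 7.71% of all genes: Aldh3a1, Cyp1a1, Nqo1, the receptor Ahr by 0.24 and its repressor Ahrr by 1.42. Ahrr, at least 2.58-fold higher, was no longer called without 1,5-Naphthalenediol 1 (adjusted p = 0.0525). Cyp1a2, a liver cytochrome P450 also under the AhR, did not pass the test (difference -0.00012, adjusted p = 0.999), with -0.23 in the diol pair and 0.23 in the naphthol pair, which differed from each other by -0.46 (adjusted p = 0.035, limma). Ugt1a6, a glucuronosyltransferase, differed by -0.06 on its brighter probe, while its dimmer probe was higher by 0.43 (adjusted p = 0.00081, limma).

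Nqo1, a quinone reductase under both AhR and NRF2, had levels of 1.00, 0.90 and 1.00 in 1,5-Naphthalenediol and 0.54, 0.60 and 0.58 in 1-Naphthol. The other side lay at -0.30, -0.26 and -0.21 in 2,7-Naphthalenediol and -0.59, -0.72 and -0.48 in Naphthalene, with DMSO at -0.66, -0.59 and -0.73. The difference of 1.19 (1.09 to 1.29, adjusted p = 8.5e-08) was 1.20 in the diol pair and 1.17 in the naphthol pair, and the pairs differed by 0.03 (adjusted p = 0.92). Gstp1, the pi-class glutathione transferase, was ordered by compound: 2.28, 2.37 and 2.29 in 1,5-Naphthalenediol, 0.91, 0.99 and 0.95 in 1-Naphthol, 0.36, 0.34 and 0.43 in 2,7-Naphthalenediol, 0.12, 0.08 and 0.16 in Naphthalene and -0.03, 0.03 and 0.08 in DMSO. Among the 4 compounds, every array of one lay above every array of the next. The sides differed 2.62-fold, by 1.39 (1.32 to 1.46, adjusted p = 1.2e-09), and the diol pair differed by more than the naphthol pair, by 1.95 against 0.83 (difference 1.12, adjusted p = 1.4e-05). Its second probe gave 1.40.

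Gsta2, an alpha-class glutathione transferase, had levels from 3.88 to 4.09 in 1,5-Naphthalenediol and 3.59, 3.68 and 3.64 in 1-Naphthol, above 2.70 to 2.998 over the 6 arrays of the other side and 2.77 to 2.83 in DMSO. Akr1b8, an aldo-keto reductase, was at -0.33, -0.24 and -0.34 in 1,5-Naphthalenediol, -1.48, -1.49 and -1.49 in 1-Naphthol and -2.06 to -1.70 on the other side. The sides differed by 1.03, and the diol pair differed by 0.95 more than the naphthol pair. Ptgr1, a prostaglandin and alkenal reductase, was higher by 0.58 and lay at 4.42, 4.50 and 4.35 in 1,5-Naphthalenediol, 4.10, 4.11 and 4.09 in 1-Naphthol, 3.79, 3.82 and 3.86 in 2,7-Naphthalenediol and 3.50, 3.56 and 3.64 in Naphthalene.

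Hspb1, a small heat shock chaperone, was highest in 1,5-Naphthalenediol, at 2.76, 2.43 and 2.38. It lay at 0.74, 0.64 and 0.44 in 1-Naphthol, between -0.13 and 0.17 on the 6 arrays of the other side, and at -0.08, -0.08 and -0.13 in DMSO. The diol pair differed by 2.50 and the naphthol pair by 0.63 (adjusted p = 0.0058), and these differed from each other by 1.87 (adjusted p = 9.3e-05, limma). Alas1, the first enzyme of haem synthesis, showed the same order, with 4.69, 4.81 and 4.62 in 1,5-Naphthalenediol, 4.05, 4.12 and 4.01 in 1-Naphthol and 3.68 to 3.81 on the other side. Cyp2b3, a cytochrome P450 of the CYP2B family, overlapped between 1-Naphthol (2.68, 2.71 and 2.65) and 1,5-Naphthalenediol (2.53, 2.67 and 2.68), and was higher than in 2,7-Naphthalenediol (2.07, 2.16 and 2.17) and Naphthalene (2.21, 2.27 and 2.29). The secreted lectin Reg4 was higher by 0.45 and the secreted proteoglycan Tsku by 0.41. Against DMSO, Reg4 differed by -0.41 in 2,7-Naphthalenediol, -0.21 in Naphthalene, 0.01 in 1-Naphthol and 0.27 in 1,5-Naphthalenediol. The values of Naphthalene and 1-Naphthol are linked to DMSO across the slides.

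Among the genes that were lower, Wnt11, a secreted Wnt ligand, had levels of -1.91, -2.01 and -1.72 in 1,5-Naphthalenediol and -1.61, -1.73 and -1.59 in 1-Naphthol. It lay at -1.07, -1.003 and -0.99 in 2,7-Naphthalenediol, -1.08, -1.15 and -1.15 in Naphthalene and -1.23, -1.16 and -1.14 in DMSO. The difference of -0.73 (-0.81 to -0.65, adjusted p = 9.7e-07) was -0.94 in the diol pair and -0.52 in the naphthol pair. Slco3a1, an organic anion transporter, lay between -3.67 and -3.44 on the position 1 side and between -3.08 and -2.71 on the other, a difference of -0.68 (-0.84 to -0.52, adjusted p = 0.00025). Car3, a carbonic anhydrase abundant in rat liver, was lower on every array of the 4 compounds than in DMSO (3.36, 3.29 and 3.39), with 2.91, 2.95 and 2.92 in Naphthalene, 2.85, 2.80 and 2.79 in 2,7-Naphthalenediol, 2.56, 2.41 and 2.46 in 1-Naphthol and 2.18, 2.28 and 2.26 in 1,5-Naphthalenediol. The caveolar coat protein Cav1 (-0.36), the transcriptional regulator Tsc22d1 (-0.40), the actin capping regulator Carmil1 (-0.32) and the zinc importer Slc39a6 (-0.25) completed the named genes that were lower.

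**Figure D2:**
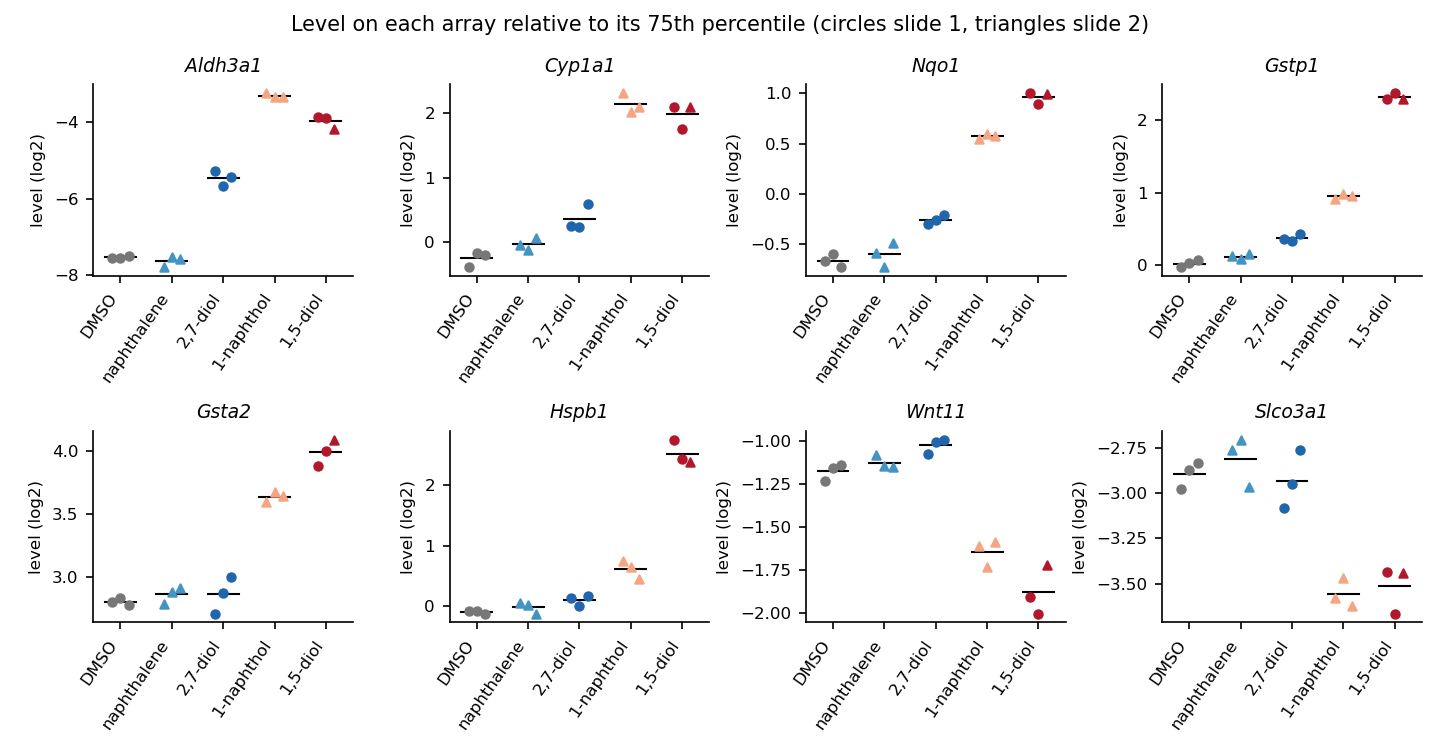
Level (log2 relative to the 75th percentile) of 8 genes on each of the 15 arrays, by compound; circles are slide 1, triangles slide 2 and bars group means. Aldh3a1 shows 2,7-diol between the 2 sides, Cyp1a1 shows 1-naphthol and 1,5-diol together, Gstp1 and Hspb1 are highest in 1,5-diol, and Wnt11 and Slco3a1 are lower in both compounds with a hydroxyl at position 1.

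All 6 pairs of the 4 compounds were compared at the same dose and time. Across the sides, 1,5-Naphthalenediol against Naphthalene gave 1149 called genes (5.81%) and 1-Naphthol against 2,7-Naphthalenediol 164 (0.829%). Within the sides, 1,5-Naphthalenediol and 1-Naphthol differed in 493 genes (2.49%), and 2,7-Naphthalenediol and Naphthalene in 113 (0.571%). The counts of different pairs cannot be ranked by effect, because the pairs that cross the slides have larger errors: the median standard error was 0.121 for 1-Naphthol against 2,7-Naphthalenediol and for 2,7-Naphthalenediol against Naphthalene, 0.0947 for the 2 other crossing pairs, and 0.0749 and 0.0670 within slides. Between array 3 of 1,5-Naphthalenediol and the 3 1-Naphthol arrays, 11 of the 26 genes were called, 10 of them higher in the diol (1.23% of all genes) and 1 lower (1.26%), with no replicate of the diol on that slide. Between 2,7-Naphthalenediol and Naphthalene 1 of the 26 was called. Without single arrays, 1-Naphthol against 2,7-Naphthalenediol had 97, 105 and 99 called genes (2,7-Naphthalenediol 1, 2 and 3), 66 (1,5-Naphthalenediol 2) and 93, 77 and 98 (1-Naphthol 1, 2 and 3). 1,5-Naphthalenediol against 1-Naphthol had 303, 284 and 298 without 1-Naphthol 1, 2 and 3. 2,7-Naphthalenediol against Naphthalene had 70 and 57 without 2,7-Naphthalenediol 1 and 3, 47 without 1,5-Naphthalenediol 2, and 66, 66 and 65 without 1-Naphthol 1, 2 and 3.

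Gene lists of xenobiotic metabolism held more called members higher than the 6.42% of all genes. Of 37 NRF2 targets and enzymes of NADPH supply tested, 21 were higher and 3 lower, with a median difference of 0.12 against -0.0047 over all genes. Beside Nqo1, Gstp1, Gsta2 and Akr1b8, the aldehyde reductase Akr7a3 was higher by 0.54 and Nfe2l2, which encodes NRF2 itself, by 0.22. Mafg (-0.19), a partner of NRF2, Osgin1 (-0.17) and the autophagy receptor Sqstm1 (-0.12) were lower. Some well-known NRF2 targets were not called: haem oxygenase Hmox1 differed by -0.04, thioredoxin reductase Txnrd1 by 0.03, the glutathione synthesis subunit Gclc by 0.05 and sulfiredoxin Srxn1 by -0.15. Hmox1 was higher by 0.16 when 1-Naphthol was left out and by 0.35 when 2,7-Naphthalenediol was left out. Without 1,5-Naphthalenediol 2 the lower members were 0. The diol pair alone had 13 members higher and 2 lower, against 3.38% and 3.7% of all genes, and the naphthol pair 10 higher and 0 lower, against 1.34% and 1.86%.

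Of 22 glutathione transferases, 9 were higher, with Gsta5 by 0.59 and Gsta3 by 0.31, and 1 was lower, Gstm3 by -0.16. Over all genes 6.42% were higher and 7.71% lower, here and for the other lists of this paragraph. The 9 became 5 without 1,5-Naphthalenediol 2. Of 26 quinone, carbonyl and aldehyde enzymes, 9 were higher and 0 lower, among them the xanthine dehydrogenase gene Xdh by 0.56. Of 25 genes of glucuronidation and sulfation, 6 were higher and 0 lower, with the glucuronosyltransferase Ugt2b7 by 0.86 and Ugdh, which makes UDP-glucuronic acid, by 0.33; without 1,5-Naphthalenediol 2 or 1-Naphthol 2 they were 3. Of 27 genes of the receptors CAR and PXR and their targets, 10 were higher and 2 lower, with Cyp2a2 by 0.39 and Cyp2a1 by 0.31 after Alas1 and Cyp2b3; without 1,5-Naphthalenediol 2, 6 were higher. Of 13 efflux transporters of conjugates and drugs, 2 were higher and 1 lower. Members of the transferase and cytochrome P450 families are close in sequence, and whether a probe also binds a relative was not tested.

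Proteasome subunits, heat shock genes and chaperones of the endoplasmic reticulum were in part higher, by small amounts. Over all genes 6.42% were higher and 7.71% lower between the sides. Of 31 proteasome subunits, 16 were higher and 0 lower, with a median of 0.11 and the largest values 0.25 for Psmb3, 0.24 for Psmd14 and 0.22 for Psmc4. These differences were all under 1.5-fold, and without 1,5-Naphthalenediol 2 the count was 9. In the diol pair 6 subunits were called higher, against 3.38% of all genes, and in the naphthol pair 0, against 1.34%. In the naphthol pair 14 had an unadjusted p under 0.05 in either direction (limma), for which no share over all genes is given. Of 20 genes of the heat shock response, 9 were higher and 3 lower, with the co-chaperone Stip1 by 0.27, Cryab by 0.24 and the mitochondrial Hspe1 by 0.24 beside Hspb1, while Hspa8 (-0.17), Hspb8 (-0.15) and Bag3 (-0.12) were lower; these 3 became 1 without 2,7-Naphthalenediol 3, 1,5-Naphthalenediol 2 or Naphthalene 2. Of 24 chaperones and response genes of the endoplasmic reticulum, 6 were higher and 0 lower, led by Herpud1, a degradation factor, by 0.24, Creld2 by 0.22 and Dnajc3 by 0.17. Here the naphthol pair had 6 members called higher, against 1.34% of all genes, and the diol pair 0, against 3.38%. In the diol pair 5 had an unadjusted p under 0.05 in either direction (limma), and the median difference of the list was -0.0034. For this count, too, no share over all genes is given. The difference between the pairs was called for 3 of the 24, against 1.56% of all genes. Without 1,5-Naphthalenediol 1 or 2 the 6 became 3, and Creld2 was lost without 1,5-Naphthalenediol 1 (adjusted p = 0.0688).

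The amino acid response driven by the transcription factor ATF4 had more members lower than higher. Of 34 members 2 were higher and 9 lower, against 7.71% of all genes lower, with the phosphatase subunit Ppp1r15a by -0.30, Nupr1 by -0.26 and asparagine synthetase Asns by -0.15, and with the cysteine synthesis enzyme Cth higher by 0.24. In the diol pair 11 were lower and 0 higher, against 3.7% and 3.38% of all genes, and in the naphthol pair 0 were lower and 3 higher, against 1.86% and 1.34%. The difference between the pairs was called for 7 of the 34, against 1.56%. Nupr1 and Ppp1r15a had the same sign in both pairs, at -0.32 and -0.20 and at -0.41 and -0.19. The 9 fell to 4 or 5 without 2,7-Naphthalenediol 1 or 2, 1,5-Naphthalenediol 2, any 1-Naphthol array or Naphthalene 1. Vldlr, a lipoprotein receptor with the largest difference of the list (-0.54, adjusted p = 0.028), was not called without the same arrays apart from 1-Naphthol 1 (adjusted p between 0.0511 and 0.126, limma).

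Of 25 genes of the immediate early and growth response, 14 were lower and 1 higher, against 7.71% and 6.42% of all genes, with a median of -0.19. Egr1, a transcription factor induced within minutes by growth signals, was lower by 0.85, at -3.03, -2.77 and -2.72 in 2,7-Naphthalenediol and between -4.68 and -3.88 on the arrays of the 3 other compounds. It differed by -0.46 (adjusted p = 0.16, limma) in the naphthol pair. Nr4a1 (-0.41), Junb (-0.40) and Klf10 (-0.38), also transcription factors, were lower, and the cytokine signalling inhibitor Socs3 was higher by 0.32 on its brighter probe, with 0.0066 on its dimmer one. In the diol pair 11 members were lower and 1 higher (3.7% and 3.38% of all genes), and in the naphthol pair 1 was lower and 0 higher (1.86% and 1.34%). Of 20 genes of the acute phase and inflammation, 6 were lower and 3 higher, against the same 7.71% and 6.42%, with the chemokines Ccl2 by -1.49, Cxcl2 by -0.58 and Cxcl1 by -0.50 and the endotoxin-binding protein Lbp by -0.31. Without 2,7-Naphthalenediol these differences were not called: Egr1 -0.26, Nr4a1 -0.29, Junb -0.17, Ccl2 -0.64, Cxcl1 -0.23 and Cxcl2 0.030. That fit compares the sides on slide 2 alone, where only array 3 stands for 1,5-Naphthalenediol. The lost calls can thus not be credited to 2,7-Naphthalenediol alone.

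Of 25 genes of cholesterol synthesis and uptake, 9 were lower and 1 higher, against 7.71% and 6.42% of all genes here and for the lists that follow, with a median of -0.12. The regulator Srebf2 was lower by 0.24 and Hmgcs1, an early enzyme of the pathway, by 0.19. Of 27 genes of fatty acid and triglyceride synthesis, 8 were lower and 3 higher, with fatty acid synthase Fasn by -0.33 and Acly, which supplies acetyl-CoA, by -0.32, and the 3 became 1 without 1,5-Naphthalenediol 2. Of 27 cell cycle and replication genes 9 were higher, among them Mcm3 by 0.27, and 4 lower, among them Ccnb2 by -0.44 and the mitotic kinase Plk1 by -0.42. Without 1,5-Naphthalenediol 2, 5 were higher, 2 were lower and Plk1 was not called (adjusted p = 0.0821).

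The share higher over all genes was 6.42% and that lower 7.71%, beside which the remaining lists are given. Of 35 genes of PPAR-alpha and fatty acid oxidation 3 were higher, with Ppara by 0.37 and Cyp4a3 by 0.24, and 1 was lower. Of 20 genes of bile acid synthesis and transport 7 were higher, led by the uptake transporter Slco1a1 by 0.30, and 1 lower, and the 7 became 3 without 1,5-Naphthalenediol 2. Of 15 genes of metal response 5 were higher, with the zinc importer Slc39a10 by 0.36, the transferrin receptor Tfrc by 0.28 and the metallothioneins Mt2A by 0.19 and Mt1 by 0.15. Of 25 genes of hypoxia and glycolysis 1 was higher, Ankrd37 by 0.37, and 5 were lower (2 without 1,5-Naphthalenediol 1 or 2, 3 without 1-Naphthol 2 or 3), and of 18 p53 targets 2 were lower, with Btg2 by -0.28. None of 45 subunits of oxidative phosphorylation was called by limma, and 2 had an unadjusted p under 0.05, against 5618 of the 19783 genes tested. Of 34 interferon-stimulated genes 1 was lower, with a median of -0.14. In these lists and that of efflux transporters, counts of 1 to 3 mostly changed when single arrays were left out, and are not read further. Of 26 genes of hepatocyte function 6 were higher, with tyrosine aminotransferase Tat by 0.38, and 1 lower, and without 1,5-Naphthalenediol 2 the 6 became 2. Of the list genes named, calls ended when a whole compound was left out (limma): without Naphthalene for Ahrr, Gsta3, Ugt2b7, Ugdh, Cyp2a2, Stip1, Cryab, Psmb3, Psmd14, Psmc4, Herpud1, Creld2, Dnajc3, Vldlr, Nupr1, Srebf2, Hmgcs1, Fasn, Acly, Nr4a1, Socs3, Plk1, Cyp4a3, Tfrc, Mt1, Mt2A, Ankrd37 and Tat, all with the direction kept. Without 2,7-Naphthalenediol they ended, with the direction kept, for Atf3, Vldlr, Ppp1r15a, Ccnb2, Plk1, Ppara, Cyp4a3, Slco1a1, Btg2, Slc39a10, Mt1 and Mt2A, beside the genes given above. Without 1-Naphthol they ended, likewise, for Creld2, Vldlr, Slco1a1 and Cxcl2. Ahr, Akr7a3, Xdh, Lbp and other list members outside the naming rule given below were not checked in this way. The fits without a compound give weight to array 3 of 1,5-Naphthalenediol. Without 2,7-Naphthalenediol it alone stands for its compound. Without Naphthalene it links 1-Naphthol to 2,7-Naphthalenediol across the slides, with larger errors. A lost call can therefore not be credited to the compound left out. Among the markers of other cells, Tagln of stellate cells was lower by 0.34 and Cdh5 of endothelial cells by 0.25. Cdh5 was not called without 2,7-Naphthalenediol 1, 1,5-Naphthalenediol 2 or 1-Naphthol 1 or 3. Of the 6 stellate markers kept 1 was called, and their differences ranged from -0.34 to 0.14. Of the 2 endothelial markers kept 1 was called, and the other differed by 0.0022. Fewer cells of a type and less RNA per cell cannot be told apart in these cultures, and the part of these markers in the results above was not tested.

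**Figure D3:**
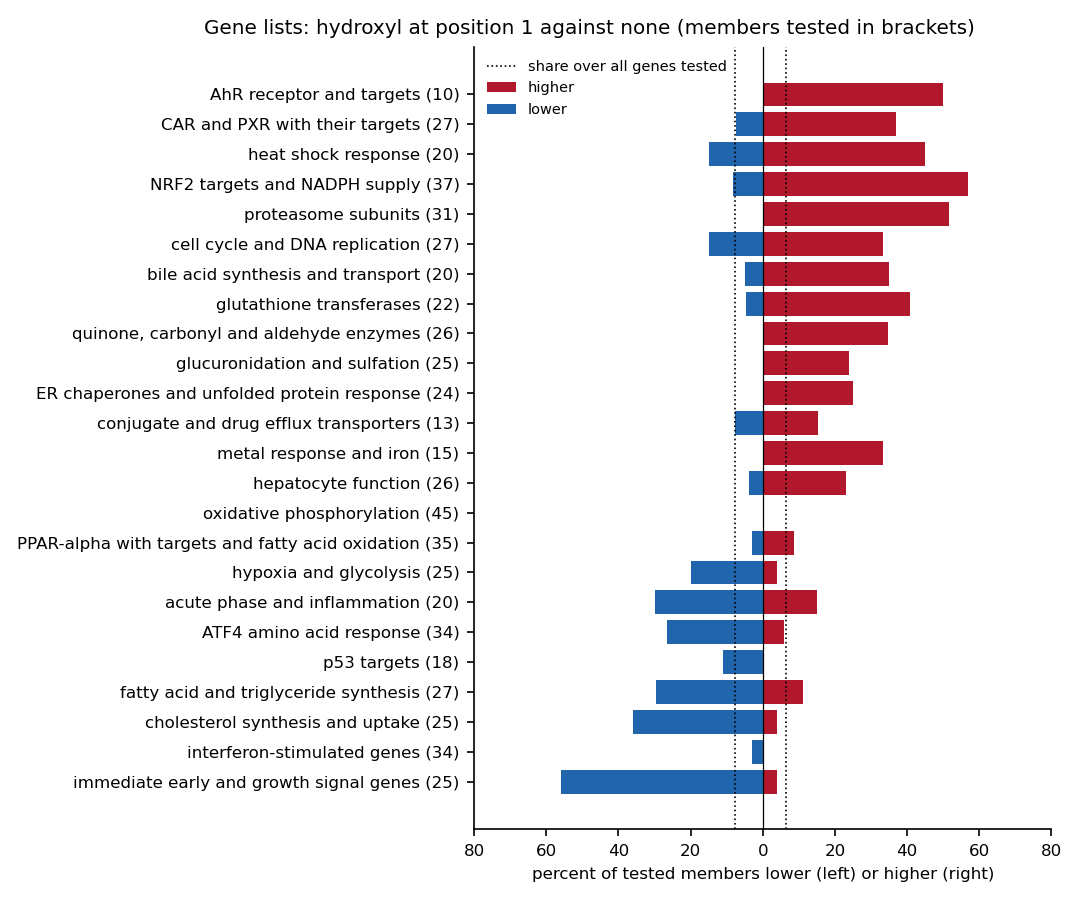
Percent of the tested members of each gene list called higher (right) or lower (left) with a hydroxyl at position 1, with the number tested in brackets; dotted lines mark the 6.42% higher and 7.71% lower over all genes. The NRF2, proteasome and AhR lists extend farthest to the right, with 21 of 37, 16 of 31 and 5 of 10 members, and the immediate early list farthest to the left, with 14 of 25.

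**Figure D4:**
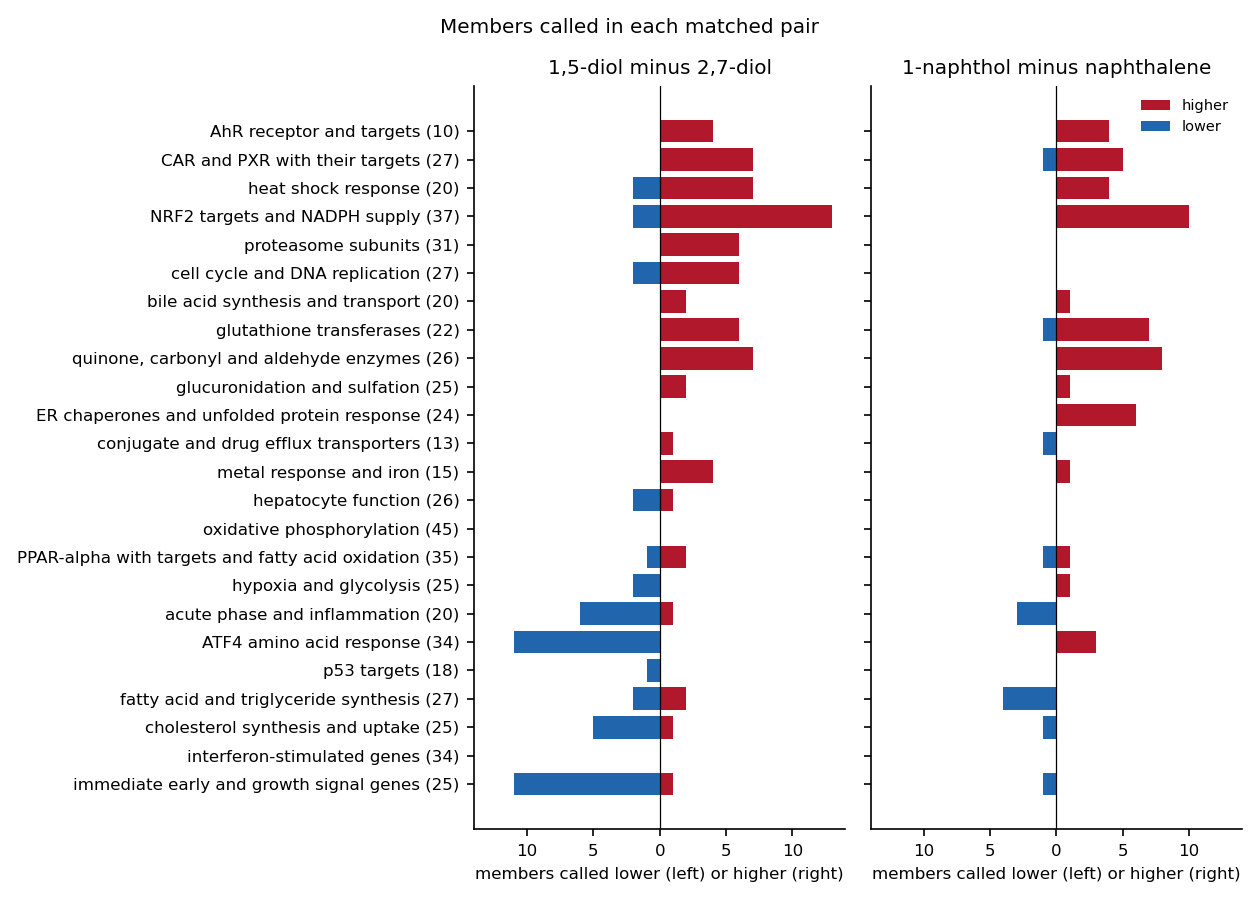
Number of members of each gene list called higher (right) or lower (left) in the diol pair (left panel) and in the naphthol pair (right panel). The lists of xenobiotic enzymes have higher members in both panels, the ATF4 list has 11 lower members in the diol pair and 0 in the naphthol pair, and the endoplasmic reticulum list has 0 higher members in the diol pair and 6 in the naphthol pair. Over all genes 3.38% were higher and 3.7% lower in the diol pair, and 1.34% and 1.86% in the naphthol pair.

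The difference between the 2 matched pairs was itself tested, and 309 genes (1.56%) were called, 189 (0.955%) with a more positive difference in the diol pair and 120 (0.607%) in the naphthol pair, of which 190 were also called between the sides (6.8% of those calls). The count fell to 187 without 2,7-Naphthalenediol 3, 157 and 84 without 1,5-Naphthalenediol 1 and 2, 148, 198 and 167 without 1-Naphthol 1, 2 and 3, and 186 without Naphthalene 2. Uchl1, a ubiquitin hydrolase best known from neurons, marked 1,5-Naphthalenediol alone, at 0.39, 0.34 and 0.30, against -1.19, -1.19 and -1.31 in 1-Naphthol, -1.35, -1.50 and -1.51 in 2,7-Naphthalenediol and -1.06, -1.18 and -1.06 in Naphthalene. The diol pair differed by 1.82 and the naphthol pair by -0.13 (adjusted p = 0.25), a difference of 1.95 (adjusted p = 1.9e-06, limma). Coro1a, an actin-binding coronin, was above background only in 1,5-Naphthalenediol, at least 5.09-fold over 2,7-Naphthalenediol, though its call was lost without any 1 of 6 arrays (adjusted p between 0.0511 and 0.116; 2,7-Naphthalenediol 1, 1,5-Naphthalenediol 1 and 2, 1-Naphthol 1 and 3, Naphthalene 2). The cystatin Cst6 differed by 1.58 in the diol pair and -0.09 in the naphthol pair. Gjb5, a connexin, was called in opposite directions, higher by 1.12 in the diol pair and lower by 0.39 in the naphthol pair (adjusted p = 0.032).

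Other genes marked 1-Naphthol. Slc43a3, a purine transporter, lay at -3.22, -3.35 and -3.23 in 1-Naphthol, against -4.67, -4.52 and -4.91 in 1,5-Naphthalenediol, -4.55, -4.66 and -4.68 in 2,7-Naphthalenediol and -4.68, -5.02 and -5.25 in Naphthalene. The naphthol pair differed by 1.72 and the diol pair by 0.03. The membrane protein Tmem117 was at least 2.99-fold higher in 1-Naphthol than in Naphthalene, with a difference of 0.09 in the diol pair, and the difference between the pairs was lost without 1,5-Naphthalenediol 2 (adjusted p = 0.0809). The cystine transporter Slc7a11 was lower by 0.43 in the diol pair and higher by 0.40 in the naphthol pair on its brighter probe, while its dimmer probe was higher by 1.05 and by 0.28, so no direction is given for this gene. In the stress lists, Atf3, an early stress factor, was lower by 0.66 in the diol pair, where 2,7-Naphthalenediol was the highest group, and Creld2 was higher by 0.44 in the naphthol pair, where Naphthalene was the lowest group.

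**Figure D5:**
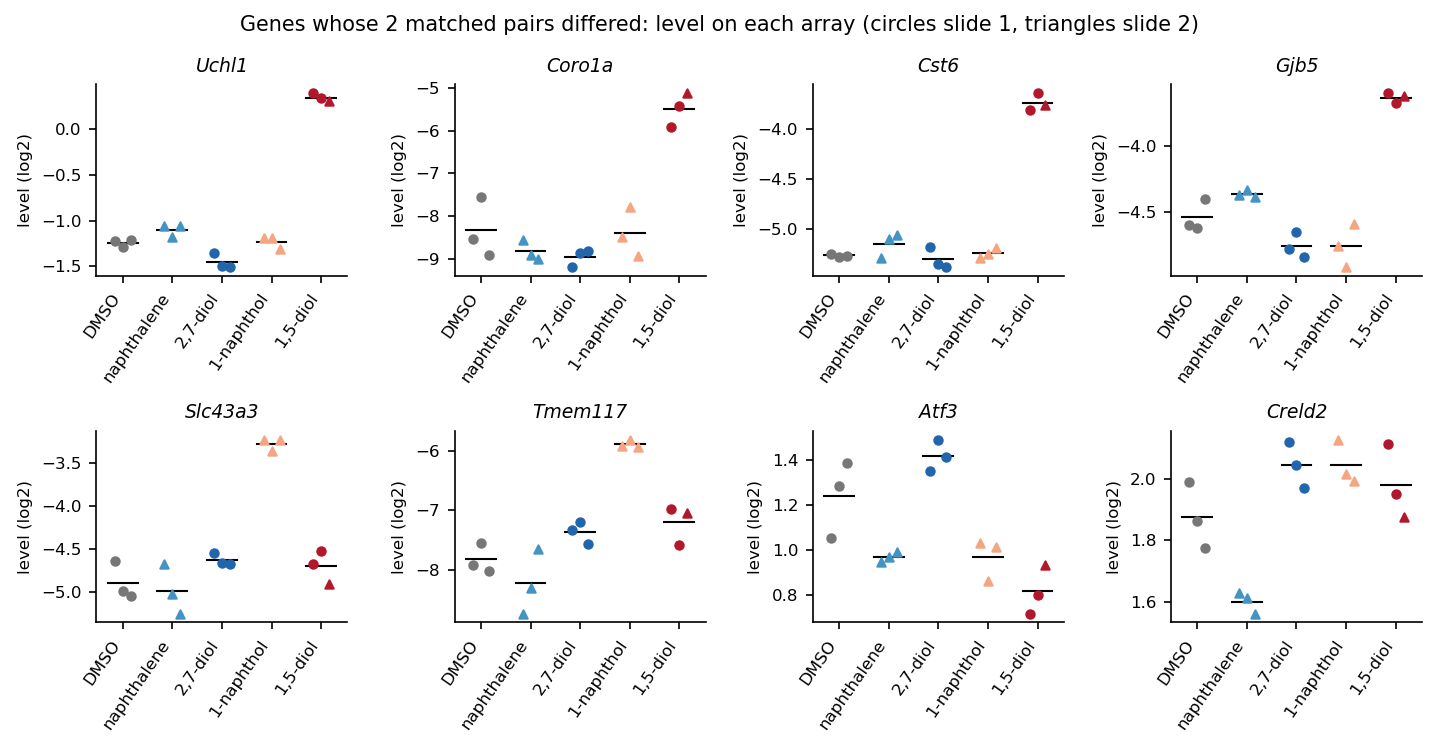
Level (log2 relative to the 75th percentile) on each of the 15 arrays for 8 genes whose difference was unequal in the 2 matched pairs; circles are slide 1, triangles slide 2 and bars group means. Uchl1, Coro1a, Cst6 and Gjb5 are highest in 1,5-diol, Slc43a3 and Tmem117 in 1-naphthol, Atf3 is highest in 2,7-diol, and Creld2 is lowest in naphthalene.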

How the data were processed

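RNA of cultured rat hepatocytes was hybridised to 15 single-colour arrays. The deposited intensity values are the processed signals of Agilent Feature Extraction 10.7.1.1, per the file headers. Control spots and outlier spots were left out, spots of a probe were averaged, and log2 intensity minus each array's 75th percentile was tested. A probe was kept where some group had it well above background on 3 of 3 arrays, and the brightest probe of a gene was used. limma 3.58.1 (R 4.3.3, with the package data.table, version 1.17.8) fitted 5 group means with the slide as a block over the 15 arrays, with Benjamini-Hochberg adjustment at 0.05. For pairs, the adjustment ran over all genes and 6 pairs. On simulated data the step recovered 62%, 80%, 98% and 100% of class differences of 0.25, 0.5, 1 and 2 (log2, 19783 genes, 50 changed at each size). Replicate numbers did not pair the arrays: 3 of 30 same-number pairs correlated above 0.1. The normexp alternative (offset 50) used median signals. Gene names are those of the array files, and some genes are not reported here.

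Named genes are those called in every pair across the sides, up to 4 per list by absolute difference, and key targets. The largest differences between the pairs, and genes called in opposite directions in them, are named too. Egr1 levels and the markers Tagln and Cdh5 were singled out after their values were seen. Outside this rule, Ahr, Akr7a3, Nfe2l2, Mafg, Osgin1, Sqstm1, Gstm3, Xdh, Cyp2a1, Hspe1, Hspa8, Hspb8, Bag3, Asns, Cth, Lbp and Mcm3 were also named. These list members were likewise picked with their values seen, and fits without an array or compound were not examined for them singly. The members and lists were chosen with earlier results of these data known, so counts of a list are descriptions. The number of arrays limits the precision.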

Additional observations from a re-analysis of the deposited data

Results flagged for a closer look

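The size of the difference between the diol pair and the naphthol pair passed the test (limma, adjusted p under 0.05) for the 24 named genes given here, with the value written as the diol pair's log2 difference minus that of the naphthol pair. It was positive for Coro1a (2.85), Uchl1 (1.95), Hspb1 (1.87), Sh3tc1 (1.79), Cst6 (1.67), Gjb5 (1.52), Gstp1 (1.12), Akr1b8 (0.95), PCOLCE2 (0.90), Ppp1r18 (0.74), Alas1 (0.74) and Reg4 (0.45). It was negative for Aldh3a1 (-2.76), Tmem117 (-2.25), Slc43a3 (-1.68), Slc7a11 (-0.83), Itpkb (-0.82), Nexn (-0.70), Atf3 (-0.66), Fgf21 (-0.51), Cyp1a2 (-0.46), Creld2 (-0.46), Wnt11 (-0.42) and Tsku (-0.38). For Slc7a11 this holds for the brighter probe only. Its dimmer probe gave 0.77 (adjusted p = 0.040, limma) and the mean of its probes -0.032 (adjusted p = 0.91, limma), so no direction is given. PCOLCE2 and Ppp1r18 were called in opposite directions in the 2 pairs, higher by 0.51 and 0.42 in the diol pair and lower by 0.39 and 0.33 in the naphthol pair. The test was lost for PCOLCE2 without 1,5-Naphthalenediol 2 (adjusted p = 0.0534), for Ppp1r18 without 1,5-Naphthalenediol 1 (0.0526), and for Nexn without 1,5-Naphthalenediol 1 (0.0704) or 1-Naphthol 1 (0.051). It was lost in 6 of the fits without 1 array for Sh3tc1 and in 10 for Itpkb. Without the filter on dim probes it was lost for Coro1a, Sh3tc1, Tmem117, Itpkb and Nexn. Coro1a was above background only in 1,5-Naphthalenediol and was kept through that group, and Aldh3a1 and Tmem117 were near background in Naphthalene. Their sizes here are therefore not measured ratios. Over the other fits the value ranged from 0.66 to 3.16 for Coro1a and from -2.54 to -0.30 for Tmem117.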

How the results depend on the processing

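Calls between the sides moved by more than 1.5 times without the filter on dim probes (554 higher, 677 lower), with the compound as a random block (457, 634), on slide 1 alone (748, 853) or slide 2 alone (180, 257), and without 2,7-Naphthalenediol (672, 889) or Naphthalene (164, 181). Without 1,5-Naphthalenediol the contrast could not be fitted. On slide 2 alone and without 2,7-Naphthalenediol, only array 3 stands for 1,5-Naphthalenediol. Without Naphthalene, that array links 1-Naphthol to 2,7-Naphthalenediol across the slides, with larger errors. The lower counts can thus not be credited to the compound left out. Leaving out 1 array gave 701 to 1389 higher and 850 to 1722 lower, 84 to 365 differences between pairs, 66 to 202 calls for 1-Naphthol against 2,7-Naphthalenediol, 314 to 917 against Naphthalene, 516 to 1833 in the diol pair, 859 to 1447 for 1,5-Naphthalenediol against Naphthalene, 284 to 589 against 1-Naphthol, and 47 to 160 for 2,7-Naphthalenediol against Naphthalene; genes called throughout were 8 to 14 higher and 3 to 18 lower. Pairs across slides could not be fitted without 1,5-Naphthalenediol 3. Without it the naphthol and diol pairs had 917 and 1833 calls. That array has no weight in either pair, and the adjustment then ran over these 2 pairs only. Without the filter the counts were 90 between pairs, 59 for 1-Naphthol against 2,7-Naphthalenediol, 190 and 483 in the naphthol and diol pairs, 397 for 1,5-Naphthalenediol against Naphthalene, 193 against 1-Naphthol, 40 for 2,7-Naphthalenediol against Naphthalene, and 6 and 2 called throughout. Without the slide block they were 2834, 1184, 2837, 4028, 2208 and 2961 in that order of pairs, and 80 and 142. With normexp, 557 genes differed between pairs, 969 in the naphthol pair and 221 for 2,7-Naphthalenediol against Naphthalene; with 12 arrays, 412 in the naphthol pair, 75 for 2,7-Naphthalenediol against Naphthalene and 5 lower throughout. The replicate number as a block gave 71 for 1-Naphthol against 2,7-Naphthalenediol, 656 for 1,5-Naphthalenediol against Naphthalene, 257 against 1-Naphthol, 40 for 2,7-Naphthalenediol against Naphthalene and 6 lower throughout, with 1176 higher and 1421 lower between the sides; the best-correlated array had the same number for 5 of 15. Single genes changed sign: Hmox1 0.16 without 1-Naphthol and 0.35 without 2,7-Naphthalenediol, Slc7a11 0.32 and Ugt1a6 0.18 as the mean of probes, Creld2 -0.013 on slide 1 alone, and Slc2a1 0.045 and Cxcl2 0.030 on slide 2 alone and without 2,7-Naphthalenediol. The test was passed with the changed sign by Hmox1 without 1-Naphthol (adjusted p = 0.049, limma). The probe means of Slc7a11 (adjusted p = 0.00087, limma) and Ugt1a6 (adjusted p = 0.0081, limma) passed it too. Of the called genes 45.5% were higher, and 41.4% to 49.1% under other scalings. The causes were not tested.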

Other observations

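Of the 26 genes called in every comparison across the sides, 7 carry no symbol. Probes A_44_P1369111 and A_44_P1360632 were each higher by 1.36, with 1.91 in the diol pair for both and 0.82 and 0.81 in the naphthol pair, values close to those of Gstp1; whether they measure its transcript was not tested.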
